A study of Homo sapiens with 24 samples.

Results

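IFI6, IFI44, IFI44L, IFITM1, IFITM2 and IFITM3 are interferon-stimulated genes (ISGs) that were followed here through 7 of the 47231 probes on the array. The probes were taken by their identifiers, with the gene names that the Illumina HT-12 annotation gives them: ILMN_2347798 and ILMN_1687384 for IFI6, ILMN_1760062 for IFI44, ILMN_1723912 for IFI44L, ILMN_1801246 for IFITM1, ILMN_1673352 for IFITM2 and ILMN_1805750 for IFITM3. All 7 were in the table and all 7 were tested. SW-13 cells come from a human adrenocortical carcinoma and lack BRG1, the ATPase of the chromatin remodeler SWI/SNF, and this lack was shared by every group. Cells were transfected with siRNA against SUZ12, a core subunit of Polycomb repressive complex 2 (PRC2), or with a control siRNA, and each was given alone or with siRNA against BRM, the ATPase related to BRG1. The cells were then left untreated or exposed to interferon-γ (IFNγ) for 6 hours, and mRNA was measured on Human-HT-12 BeadChips.

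The 8 groups held 3 arrays each. They were siCtrl, siSUZ12, siCtrl + siBRM and siSUZ12 + siBRM, each untreated and with IFNγ. The siCtrl and siSUZ12 doses were 50 nM, the siBRM dose was 75 nM, and IFNγ was used at 0.1 mg/ml as the Methods give it. Transfection was done in 2 cycles. Groups with siBRM received more siRNA in total than groups without it, so an effect of BRM loss and an effect of the larger siRNA load cannot be told apart. Arrays were made from whole cultures of 1 cell line, so a change in every cell and a change in a fraction of the cells cannot be told apart either. The table does not pair probes with gene names, so the knockdown of SUZ12 and BRM and the identity of the line were not read from the arrays.

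Array means of the deposited signals ran from 531.8 to 635.2. A probe was read as detected where its detection p-value was below 0.01, as 15223 to 16799 probes were on the different arrays. All arrays were brought to 1 common mean (average normalization), and the signals given below are on that scale. For each of the 24 arrays the best correlated array came from the same group (r of log2 signals within groups 0.9939 to 0.9954, between groups 0.9817 to 0.9938). Fold changes come from 1 limma fit to all 24 arrays, and a probe was said to rise or fall when its Benjamini-Hochberg adjusted p-value over the 47231 probes was below 0.05. Each probe has its own brightness, so a difference in signal between probes is not read as a difference in mRNA level. Background light was not subtracted, and where a group did not detect a probe its signal was not told apart from background. A fold over such a group, as for IFI44, IFI44L and IFITM1, is a value on this scale and not a fixed fold of the mRNA. Beside many of these folds the value after background correction with neqc is given, and those without it have the same limit. An array yields no counts, and the precision is set by having only 3 arrays in a group.

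IFNγ binds a receptor at the cell surface and acts on promoters through GAS elements. Interferon regulatory factors bind interferon-stimulated response elements (ISREs), which many ISG promoters carry. PRC2 methylates histone H3 on a lysine, a mark found on silent promoters. IFI6 is a small membrane protein that restricts some viruses and opposes apoptosis. IFI44 and IFI44L are related proteins encoded side by side. The IFITM proteins sit in membranes and hinder the fusion through which enveloped viruses enter cells, and their genes lie in a cluster.

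RefSeq promoter windows (250 bases before to 50 bases after a gene's start, build GRCh38.p14) were found for 5 of the 6 genes. They are shown because the members differed in their response to IFNγ and siSUZ12, and the letters of response elements can be looked up in them. The letters GAAANNGAAA, the core of an ISRE, were searched on both strands. At least 1 match stood in the window of each of the 5 genes, against 3.57% of the 35116 windows in the whole table, and at least 2 matches stood in 4 of the 5, against 0.259%. The stretches below lie before the start and are written 5′ to 3′ in the direction of transcription, with ISRE core matches in capitals. IFI6 lies on the minus strand of chromosome 1 (chr1:27672256-27672368), IFI44L and IFI44 on the plus strand of chromosome 1 (chr1:78620264-78620404 and chr1:78649751-78649788), IFITM1 on the plus strand of chromosome 11 (chr11:313980-314029) and IFITM3 on its minus strand (chr11:320866-320932).
IFI6: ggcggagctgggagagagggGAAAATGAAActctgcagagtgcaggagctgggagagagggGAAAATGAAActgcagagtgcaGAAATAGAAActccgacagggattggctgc
IFI44: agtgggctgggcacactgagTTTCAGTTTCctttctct
IFI44L: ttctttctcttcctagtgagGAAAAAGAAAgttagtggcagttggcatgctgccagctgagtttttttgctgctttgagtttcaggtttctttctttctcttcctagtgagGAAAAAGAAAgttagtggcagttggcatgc
IFITM1: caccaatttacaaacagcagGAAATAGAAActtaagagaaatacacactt
IFITM3: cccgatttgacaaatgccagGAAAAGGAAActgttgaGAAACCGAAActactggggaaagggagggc

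IFI6 had 3 ISRE core matches, between 156 and 84 bases before the start. IFI44, for which the table lists 2 overlapping windows and the first is shown, had 1 match, which was read on the opposite strand and ended 9 bases before the start. In the IFI44L stretch the same match, with its flanks, was written 2 times. IFITM1 had a second match that ran across the start and is not shown, and IFITM3 had both of its matches within the last 52 bases. The letters TTCNNNGAA, the core of a GAS element and its own reverse complement, occurred 1 time in these windows, in IFITM1, where they overlapped the ISRE core match that runs across the start, against 7.66% of all windows. A match in letters is a description of the reference sequence and not a bound site, and its absence says only that the letters were not in the window.

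**Figure D1:**
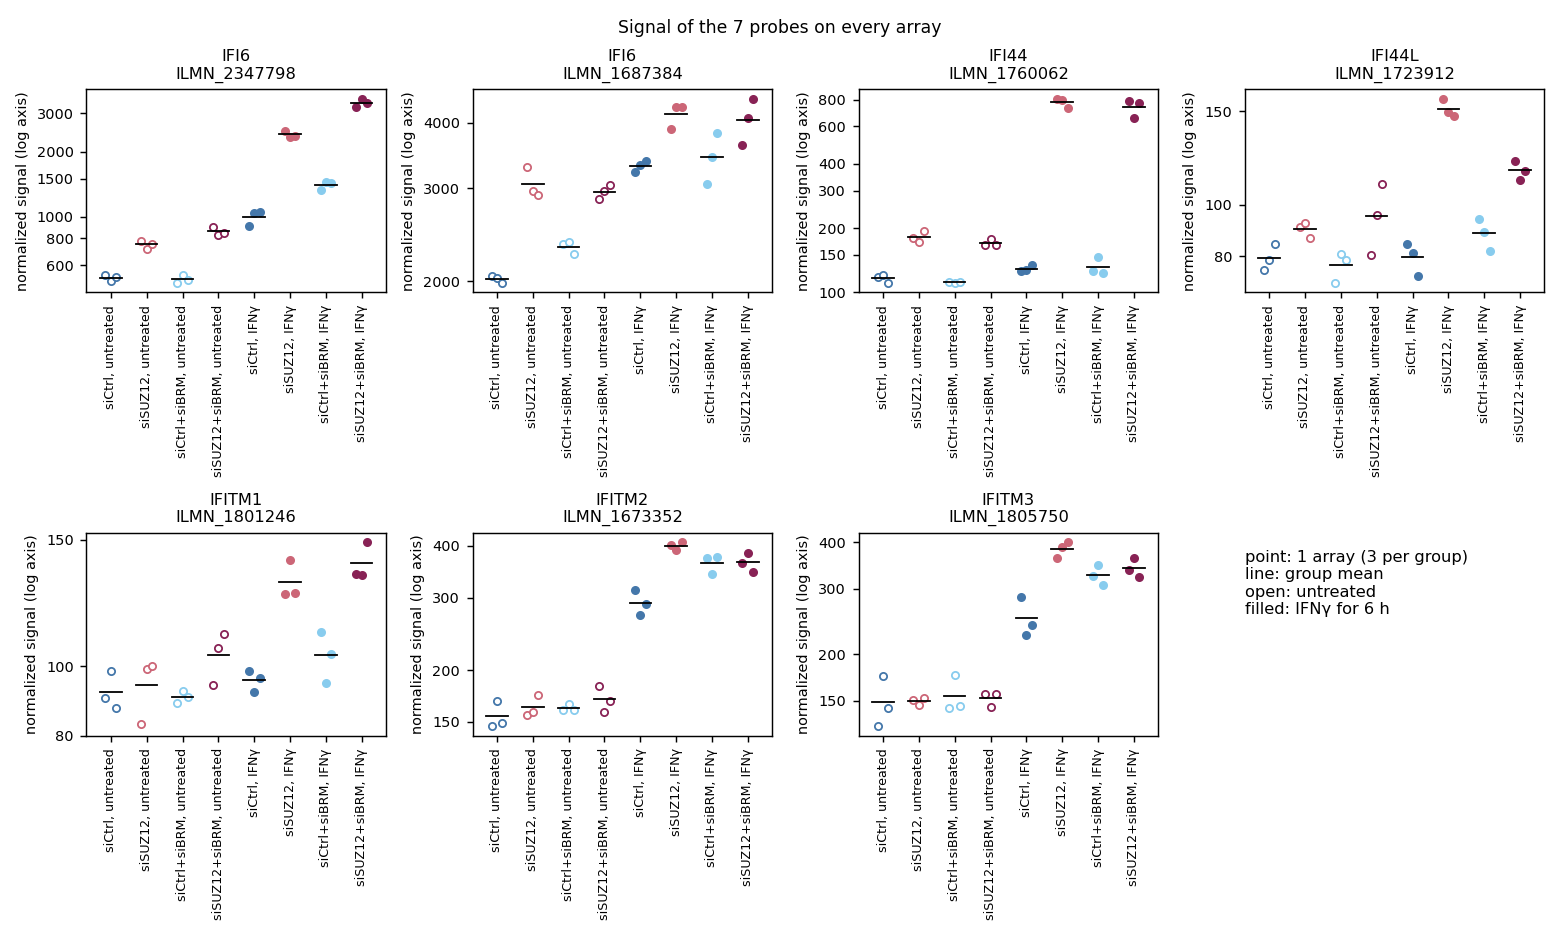
Normalized signal (log axis) of the 7 probes on each of the 24 arrays. Points are arrays, lines are group means, open points are untreated cells and filled points are cells with IFNγ. For IFI44 the 6 siSUZ12 arrays with IFNγ lie between 658 and 810.2, and the highest of all other arrays is at 194.

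The comparisons that ask how each gene responds to IFNγ are given first. In siCtrl cells, IFNγ raised 4 of the 7 probes, while 0.593% of all probes rose: both IFI6 probes, IFITM2 and IFITM3. None of the 7 rose ≥ 2-fold there on this scale. After background correction with neqc the rises of IFITM2 and IFITM3 were 1.47 and 1.31 (log2), so this count depends on the background step. The probes of IFI44, IFI44L and IFITM1 did not pass the test in siCtrl cells. In siSUZ12 cells all 7 probes rose (1.2% of all probes), and 4 of them rose ≥ 2-fold (0.275% of all probes).

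The IFI6 probe ILMN_2347798 gave signals of 539.8, 507 and 529.7 on the untreated siCtrl arrays and 908, 1039 and 1049.6 with IFNγ. On the siSUZ12 arrays the signals were 777, 714 and 753 untreated and 2499, 2346 and 2358 with IFNγ. Neither pair of groups overlapped, and every siSUZ12 array with IFNγ was more than 2-fold above every siCtrl array with IFNγ. IFNγ raised this probe 1.90-fold in siCtrl cells (log2 0.92 ± 0.076, SE, limma adjusted p = 8.78e-11) and 3.21-fold in siSUZ12 cells (log2 1.68 ± 0.076, adjusted p = 2.68e-18). The difference between these inductions was 0.76 ± 0.11 on the log2 scale and passed the test (adjusted p = 7.83e-05).

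The other IFI6 probe, ILMN_1687384, also rose with IFNγ in both, by smaller folds. Its signals were 2044, 2025 and 1984 in untreated siCtrl cells and 3227, 3322 and 3379.8 with IFNγ, and 3302, 2963 and 2909.8 in untreated siSUZ12 cells and 3897, 4284 and 4283 with IFNγ. The arrays with IFNγ lay above the untreated arrays in both. IFNγ raised it by 0.71 ± 0.084 (log2) in siCtrl cells (limma adjusted p = 3.98e-07) and by 0.44 ± 0.084 in siSUZ12 cells (adjusted p = 0.00102). The siSUZ12 value no longer passed when replicate 2 or replicate 3 was left out of all groups, where the adjusted p reached 0.184. The difference in induction was -0.27, with a 95% interval of -0.51 to -0.03, and did not pass after adjustment (adjusted p = 0.859). That interval holds no value above 0, whereas the interval of ILMN_2347798 was 0.54 to 0.98.

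IFI44 had the largest induction of the 7 probes in siSUZ12 cells. Its signals were 118, 120.0 and 111 in untreated siCtrl cells and 126, 127 and 134 after IFNγ, a small shift in which the groups did not overlap but which did not pass the test (log2 0.15 ± 0.082, adjusted p = 0.794). In siSUZ12 cells its signals were 179.9, 172 and 194 untreated and 810.2, 797 and 729 with IFNγ, a 4.28-fold rise (log2 2.10 ± 0.082, 2.86 with neqc, limma adjusted p = 3.71e-20). None of the siCtrl arrays without siBRM detected this probe at a detection p-value below 0.01, and all 12 arrays with siSUZ12 did. The difference in induction, whose siCtrl groups were both undetected, was 1.95 ± 0.12 (log2, 2.48 with neqc) and passed the test (adjusted p = 6.94e-14).

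IFI44L, the paralog next to IFI44, was at the edge of detection. It read 75.3, 78.6 and 84.4 in untreated siCtrl cells and 84.5, 81.0 and 73.4 with IFNγ, and these arrays overlapped (log2 0.00 ± 0.090). It read 90.7, 92.5 and 86.6 in untreated siSUZ12 cells and 158, 149.8 and 147 with IFNγ. Those last 3 arrays were the only ones of the 24 on which the probe was detected. Over an undetected untreated group, IFNγ raised its signal in siSUZ12 cells by 0.75 ± 0.090 (log2, 1.47 with neqc, limma adjusted p = 2.72e-07), and the induction exceeded that of siCtrl cells by 0.75 ± 0.13 (1.47 with neqc, adjusted p = 0.00135). That difference was not called when replicate 2 or replicate 3 was left out of all groups (adjusted p up to 0.145).

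IFITM1 was also dim, and was detected on 3 of the 24 arrays, all of them from cells with siSUZ12 and IFNγ (1 without and 2 with siBRM). Its signals were 90.1, 98.4 and 87.5 in untreated siCtrl cells, and they overlapped those with IFNγ, which were 98.4, 92.1 and 96.3. In siSUZ12 cells the signals were 83.1, 99.0 and 100.2 untreated, and all were below those with IFNγ, which were 126, 141 and 127. Its signal rose by 0.48 ± 0.086 in siSUZ12 cells (log2, 0.95 with neqc), where 0 of 3 untreated arrays and 1 of 3 with IFNγ detected it (limma adjusted p = 0.000440). The difference in induction of 0.43 ± 0.12 (log2, 0.88 with neqc) did not pass (adjusted p = 0.329).

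IFITM2 and IFITM3 responded to IFNγ in every siRNA background. IFITM2 read 146, 168 and 149 in untreated siCtrl cells and 313, 272 and 289 with IFNγ, and 156, 159 and 175 in untreated siSUZ12 cells and 402, 392 and 409 with IFNγ. IFITM3 read 128, 175 and 143 in untreated siCtrl cells and 286, 225 and 239 with IFNγ, and 150.4, 146 and 152 in untreated siSUZ12 cells and 364, 389 and 401 with IFNγ. For both genes every array with IFNγ lay above every untreated array, and the siSUZ12 arrays with IFNγ lay above the siCtrl arrays with IFNγ. IFITM2 rose 1.88-fold in siCtrl (log2 0.91 ± 0.080) and 2.46-fold in siSUZ12 cells (log2 1.30 ± 0.080), and IFITM3 rose 1.69-fold (log2 0.75 ± 0.099) and 2.57-fold (log2 1.36 ± 0.099). The limma adjusted p-values were 4.32e-10 and 1.61e-14 for IFITM2, and 3.67e-06 and 1.43e-12 for IFITM3. The differences in induction, 0.39 ± 0.11 for IFITM2 and 0.61 ± 0.14 for IFITM3, did not pass (adjusted p = 0.377 and 0.0623), although the IFITM3 difference passed under 8 of 35 alternative settings (adjusted p down to 0.00873). The IFITM mRNAs are close in sequence, and whether each probe reads only its own gene is uncertain, since probe sequences were not analysed here.

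Of the 7 differences in induction between siSUZ12 and siCtrl cells, 3 passed the test in the positive direction, those of IFI6 (ILMN_2347798), IFI44 and IFI44L, while 0.182% of all probes did. The IFI44 difference was the only one of ≥ 2-fold, while 0.0423% of all probes were. All 7 had an unadjusted p below 0.05, as did 2605 of all 47231 probes. The sign of ILMN_1687384 was negative and the others were positive. Over the 7 probes the median difference was 0.61 (log2), beside a median of -0.04 over all probes.

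**Figure D2:**
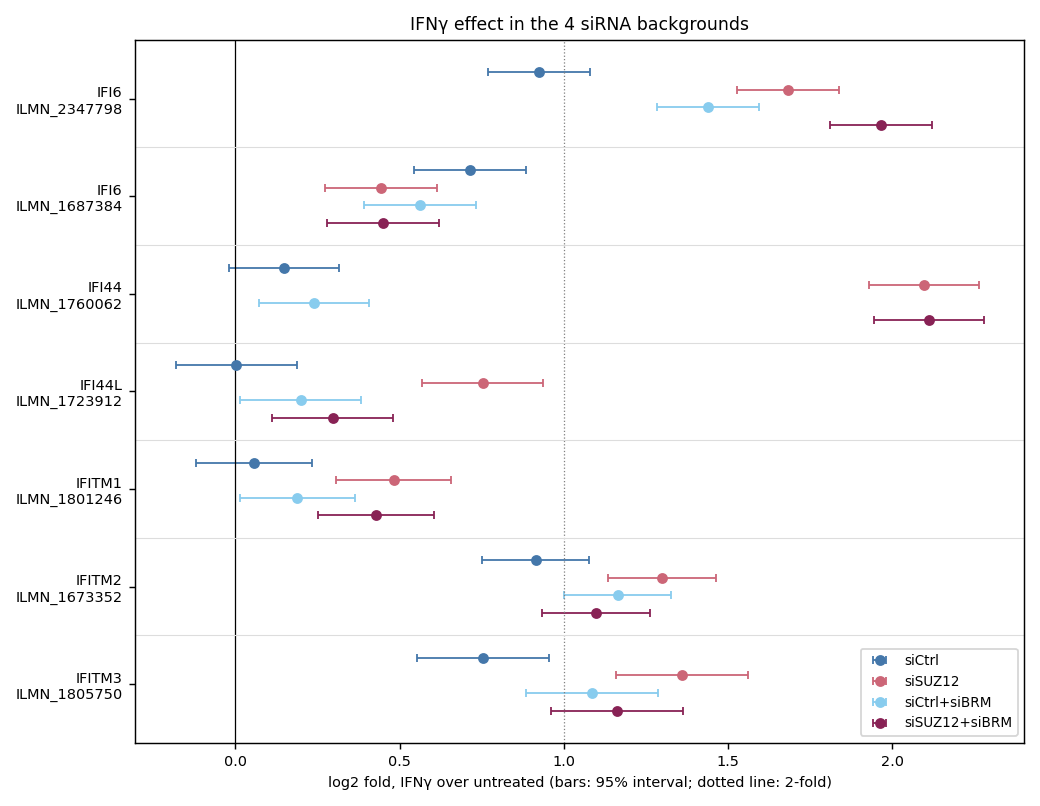
Log2 fold change by IFNγ of each probe in the 4 siRNA backgrounds, with 95% intervals from the limma fit (3 arrays per group). IFI44 sits near 0.15 and 0.24 in the backgrounds with siCtrl and at 2.10 and 2.11 in those with siSUZ12, whereas the intervals of ILMN_1687384 (IFI6) overlap in all 4.

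The same comparisons were available in cells that also received siBRM. In siCtrl + siBRM cells IFNγ raised 4 of the 7 probes (0.987% of all probes rose), the 2 IFI6 probes, IFITM2 and IFITM3, and 3 of these rose ≥ 2-fold (0.159% of all probes). In siSUZ12 + siBRM cells 6 of the 7 rose (1.44% of all probes) and 4 rose ≥ 2-fold (0.296% of all probes), with IFI44L the one that did not pass.

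ILMN_2347798 (IFI6) read 497, 543 and 513 in untreated siCtrl + siBRM cells and 1333, 1449 and 1427 with IFNγ. It read 903, 827 and 844 in untreated siSUZ12 + siBRM cells and 3216, 3504 and 3344 with IFNγ, the highest signals of this probe on any array. Its inductions were 2.71-fold (log2 1.44 ± 0.076) and 3.91-fold (log2 1.97 ± 0.076), with limma adjusted p-values of 4.01e-16 and 2.57e-20. They differed by 0.53 ± 0.11 (adjusted p = 0.0269), a call that was lost under 14 of 35 alternative settings, among them each replicate number left out of all groups and a fit of the 4 groups alone.

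ILMN_1687384 (IFI6) read 2353, 2372 and 2251 in untreated siCtrl + siBRM cells and 3057, 3448 and 3833 with IFNγ, and 2865, 2970.2 and 3041 in untreated siSUZ12 + siBRM cells and 3632, 4088 and 4446 with IFNγ. The 2 groups with IFNγ overlapped each other and lay above their untreated groups. The inductions were 0.56 ± 0.084 and 0.45 ± 0.084 (log2, limma adjusted p = 3.00e-05 and 0.000650), the second of which did not pass without replicate 2 (adjusted p = 0.0700). Their difference of -0.11 had a 95% interval of -0.35 to 0.13.

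In siBRM cells, too, IFI44 was induced with siSUZ12 and not called with siCtrl. Its signals were 111, 111 and 112 in untreated siCtrl + siBRM cells and 126, 147 and 122 with IFNγ, and 167, 177 and 167 in untreated siSUZ12 + siBRM cells and 789, 658 and 772 with IFNγ. The first rise did not pass (log2 0.24 ± 0.082, adjusted p = 0.226), except after background correction with neqc, where it was 0.54 (adjusted p = 0.0457). The second was 4.32-fold (log2 2.11 ± 0.082, 2.94 with neqc, limma adjusted p = 2.95e-20), and the difference between them was 1.87 ± 0.12 (2.40 with neqc, adjusted p = 2.64e-13).

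IFI44L read 71.3, 80.7 and 78.9 in untreated siCtrl + siBRM cells and 94.2, 88.9 and 81.9 with IFNγ. In siSUZ12 + siBRM cells it read 80.4, 95.8 and 109.6 untreated and 121, 111 and 116 with IFNγ, and none of these 12 arrays detected it. The arrays with IFNγ stood above the untreated arrays in both, but neither rise passed (log2 0.20 ± 0.090 and 0.30 ± 0.090, 0.14 and 0.46 with neqc, adjusted p = 0.511 and 0.0846). The second rise passed in 4 alternative settings (adjusted p down to 0.00213), 1 of which left out replicate 3 of the untreated siSUZ12 + siBRM arrays, the highest of its group.

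IFITM1 read 88.9, 92.3 and 90.5 in untreated siCtrl + siBRM cells and 112, 94.6 and 104 with IFNγ, and 94.0, 106 and 111 in untreated siSUZ12 + siBRM cells and 134, 134 and 149 with IFNγ. Only the rise in siSUZ12 + siBRM cells passed (log2 0.43 ± 0.086, 0.88 with neqc, limma adjusted p = 0.00178), and it did not without replicate 1 or replicate 3 (adjusted p up to 0.0600). The rise with siCtrl + siBRM was 0.19 ± 0.086 (adjusted p = 0.514).

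IFITM2 read 160.2, 166 and 161 in untreated siCtrl + siBRM cells and 373, 342 and 376 with IFNγ, and 184, 159 and 169 in untreated siSUZ12 + siBRM cells and 363, 385 and 346 with IFNγ. IFITM3 read 143, 175 and 145 in untreated siCtrl + siBRM cells and 325, 348 and 308 with IFNγ, and 157, 144 and 156 in untreated siSUZ12 + siBRM cells and 337, 364 and 323 with IFNγ. In these cells the groups with IFNγ overlapped between siCtrl and siSUZ12 for both genes, whereas without siBRM they did not. IFITM2 rose 2.24-fold and 2.14-fold and IFITM3 2.12-fold and 2.24-fold in the same order (limma adjusted p between 5.54e-13 and 7.88e-10). The differences in induction were -0.07 (95% interval -0.30 to 0.17) and 0.08 (95% interval -0.21 to 0.36).

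With siBRM, 2 of the 7 differences in induction between siSUZ12 and siCtrl passed in the positive direction, those of IFI6 (ILMN_2347798) and IFI44, against 0.0974% of all probes, and the IFI44 difference was ≥ 2-fold, against 0.0381%. Whether siBRM altered the effect of siSUZ12 on induction was tested by itself, and 0 of the 7 passed in limma (0.00212% of all probes did). At an unadjusted p below 0.05 stood 1718 of the 47231 probes and 3 of the 7. These were IFI44L at -0.65 ± 0.18, IFITM2 at -0.45 ± 0.16 and IFITM3 at -0.53 ± 0.20 (log2), all negative. With neqc the IFI44L value was -1.15 and passed (adjusted p = 0.0381), a call that no other setting gave. Only siSUZ12 with IFNγ, among the groups in this difference, detected IFI44L. For IFI44 the value was -0.08, with a 95% interval of -0.41 to 0.26.

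**Figure D3:**
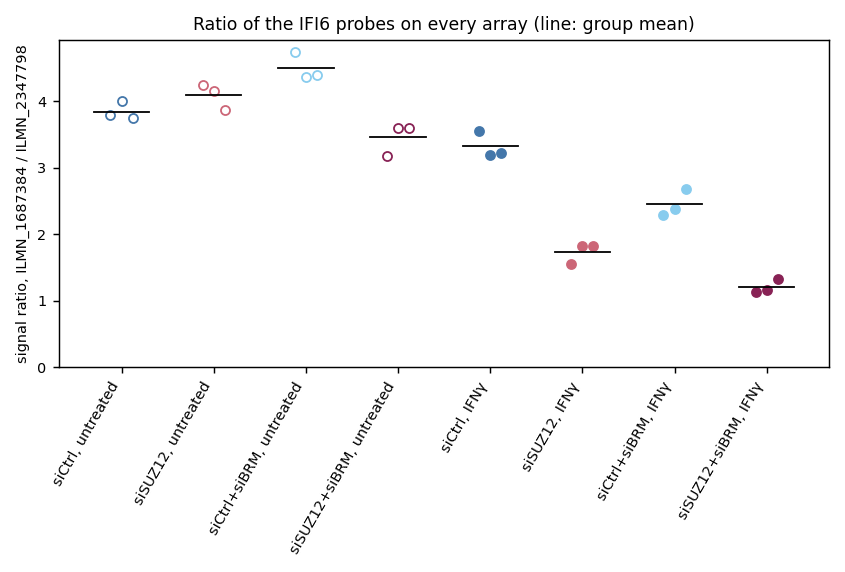
Ratio of the signals of the IFI6 probes, ILMN_1687384 over ILMN_2347798, on each array, with group means as lines. Untreated arrays lie between 3.175 and 4.734 and the siSUZ12 + siBRM arrays with IFNγ between 1.129 and 1.33.

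The IFI6 probes differed from each other in how far they moved, and the ratio of their signals within an array shows this without any scaling. ILMN_1687384 over ILMN_2347798 averaged 3.84 ± 0.134 (SD, n = 3) in untreated siCtrl cells and 3.32 ± 0.199 with IFNγ. In siSUZ12 cells it averaged 4.09 ± 0.201 untreated and 1.73 ± 0.151 with IFNγ. In siCtrl + siBRM cells it went from 4.50 ± 0.205 to 2.45 ± 0.206, and in siSUZ12 + siBRM cells from 3.46 ± 0.243 to 1.21 ± 0.107. The ratio was lower with IFNγ than without on every array of each background, and lower in the siSUZ12 than in the siCtrl cells with IFNγ. A falling ratio shows unequal change of the 2 probes and does not show which of them follows the gene. The ratio is used only for its change between groups, not as a ratio of mRNA levels.

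The second set of comparisons asks how siSUZ12 changed the same genes at a fixed IFNγ state. In untreated cells siSUZ12 raised 3 of the 7 probes, the 2 of IFI6 and that of IFI44, while 8.16% of all probes rose. With IFNγ it raised all 7 (7.28% of all probes), and 2 of them, ILMN_2347798 (IFI6) and IFI44, by ≥ 2-fold (0.481% of all probes). With siBRM present, siSUZ12 raised 4 of the 7 in untreated cells (5.04% of all probes), and 4 with IFNγ (4.72%), of which the same 2 probes rose ≥ 2-fold (0.292%). Both counts with siBRM include IFI44L, which no array with siBRM detected.

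Basal IFI6 was higher in siSUZ12 cells by both of its probes. ILMN_2347798 averaged 525 ± 16.9 (SD, n = 3) in untreated siCtrl cells and 748 ± 31.5 (SD, n = 3) in untreated siSUZ12 cells, a 1.42-fold difference (log2 0.51 ± 0.076, limma adjusted p = 4.09e-06). ILMN_1687384 averaged 2018 ± 30.9 (SD, n = 3) and 3058 ± 213 (SD, n = 3), a 1.51-fold difference (log2 0.60 ± 0.084, adjusted p = 1.33e-06). With siBRM the untreated differences were 0.73 ± 0.076 for ILMN_2347798 (adjusted p = 1.08e-08) and 0.35 ± 0.084 for ILMN_1687384 (adjusted p = 0.00536), and the second was lost in 3 alternative settings, without normalization and without replicate 2 or 3. With IFNγ, ILMN_2347798 was 2.41-fold higher in siSUZ12 than in siCtrl cells and 2.39-fold higher with siBRM (limma adjusted p = 4.31e-15 and 1.13e-14). ILMN_1687384 was 1.25-fold higher (adjusted p = 0.00485, lost without replicate 2 at 0.123), and with siBRM its difference of 0.24 ± 0.084 did not pass (adjusted p = 0.0857), although it did in 6 alternative settings.

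IFI44 was raised by siSUZ12 in all 4 settings. In untreated cells its mean was 116 ± 4.73 (SD, n = 3) with siCtrl and 182 ± 11.1 (SD, n = 3) with siSUZ12, a log2 difference of 0.65 ± 0.082 (1.30 with neqc, limma adjusted p = 2.16e-07). With IFNγ these means were 129 ± 4.18 (SD, n = 3) and 779 ± 43.8 (SD, n = 3), a log2 difference of 2.59 ± 0.082 (3.78 with neqc, adjusted p = 1.34e-22), and in neither state did a siCtrl array detect the probe. With siBRM the differences were 0.62 ± 0.082 untreated and 2.49 ± 0.082 with IFNγ (1.21 and 3.61 with neqc, adjusted p = 1.49e-06 and 7.28e-22). Even the untreated siSUZ12 arrays lay above every siCtrl array with IFNγ.

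IFI44L, by contrast with its neighbour, did not pass for siSUZ12 alone in untreated cells, where no array detected it (log2 0.18 ± 0.090, adjusted p = 0.245). With IFNγ its signal was higher by 0.93 ± 0.090 over siCtrl arrays that did not detect it (log2, 1.58 with neqc, limma adjusted p = 6.66e-10). With siBRM the differences were 0.30 ± 0.090 untreated (0.26 with neqc, adjusted p = 0.0327) and 0.40 ± 0.090 with IFNγ (0.58 with neqc, adjusted p = 0.00278). The untreated call rested on overlapping arrays and was lost in 9 of 35 alternative settings, and the call with IFNγ was lost without replicate 3 (adjusted p = 0.0590). No array with siBRM detected IFI44L, so both of these differences compare signals that were not told apart from background.

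Among the IFITM genes siSUZ12 passed in no untreated setting. The untreated log2 differences were 0.03, 0.08 and 0.02 for IFITM1, IFITM2 and IFITM3, and 0.19, 0.07 and -0.02 with siBRM, with SEs of 0.086, 0.080 and 0.099. No untreated array detected IFITM1, so its untreated differences compare signals that were not told apart from background. With IFNγ, siSUZ12 raised the signal of IFITM1, which siCtrl arrays did not detect, by 0.45 ± 0.086 (log2, 0.89 with neqc), IFITM2 by 0.46 ± 0.080 and IFITM3 by 0.63 ± 0.099 (limma adjusted p = 0.000146, 4.14e-05 and 9.21e-06). With IFNγ and siBRM the IFITM1 difference was 0.43 ± 0.086 (0.83 with neqc, adjusted p = 0.000667) and those of IFITM2 and IFITM3 were 0.00 (95% interval -0.16 to 0.17) and 0.06 (95% interval -0.14 to 0.26).

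**Figure D4:**
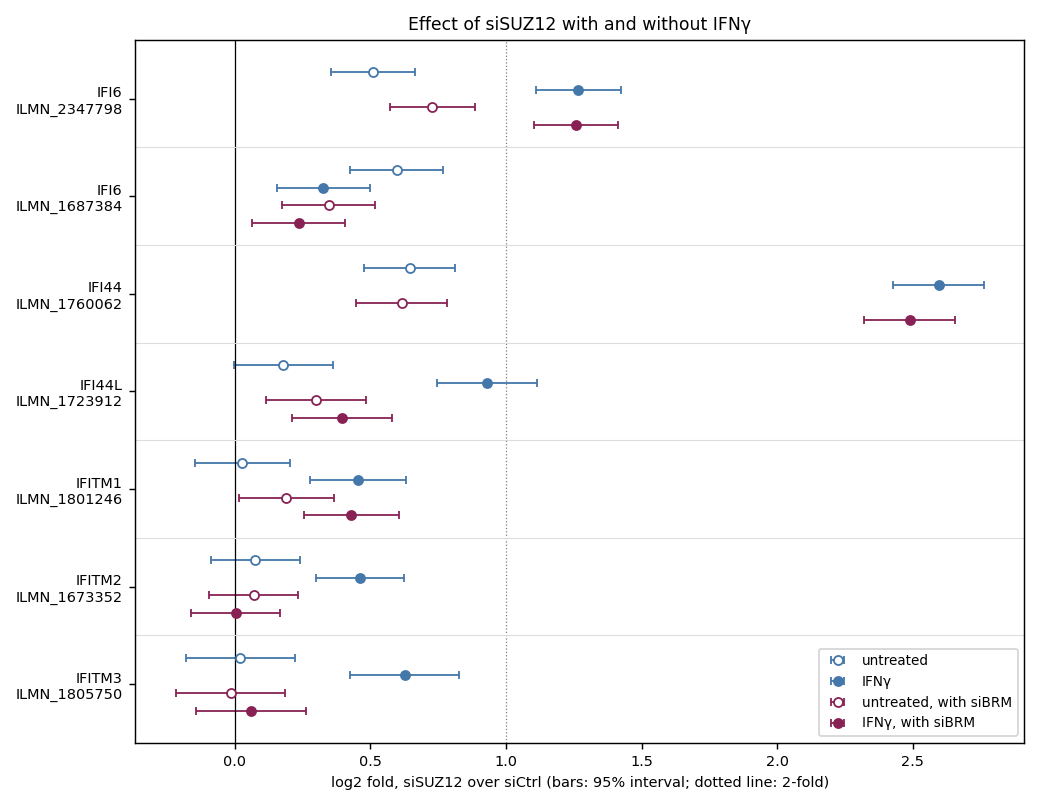
Log2 fold change of siSUZ12 over siCtrl for each probe, untreated (open) and with IFNγ (filled), without siBRM (blue) and with it (purple), with 95% intervals from the limma fit. In untreated cells the IFITM probes lie between -0.02 and 0.19, and with IFNγ and without siBRM between 0.45 and 0.63.

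The third set of comparisons adds siBRM at a fixed state. In untreated cells limma called 0 of the 7 probes, both in siCtrl cells, where 3.39% of all probes changed either way, and in siSUZ12 cells, where 2.94% did. In each, 1 of the 7 had an unadjusted p below 0.05, as did 5781 and 5450 of all 47231 probes, so this count does not set the members apart. They were ILMN_1687384 at 0.20 ± 0.084 in siCtrl cells and ILMN_2347798 at 0.20 ± 0.076 in siSUZ12 cells (log2, both IFI6). With IFNγ, siBRM raised 3 of the 7 in siCtrl cells (1.41% of all probes rose). In siSUZ12 cells with IFNγ it raised 1 (1.68% of all probes rose) and lowered 1 (1.71% fell).

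ILMN_2347798 (IFI6) was the probe that rose with siBRM in both backgrounds with IFNγ. It was 1.41-fold higher in siCtrl cells (log2 0.49 ± 0.076, limma adjusted p = 5.09e-05) and 1.40-fold higher in siSUZ12 cells (log2 0.48 ± 0.076, adjusted p = 8.59e-05), and in neither did the arrays overlap. IFITM2 rose by 0.32 ± 0.080 and IFITM3 by 0.39 ± 0.099 in siCtrl cells with IFNγ (adjusted p = 0.0166 and 0.0176). These calls were lost under 9 and 7 of 35 alternative settings, where the adjusted p reached 0.258 and 0.357. Among them were the fits that left out replicate 2 or replicate 3 of siCtrl with IFNγ, or replicate 1 of siCtrl + siBRM with IFNγ, for both genes.

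In siSUZ12 cells with IFNγ the same 2 genes had values of -0.14 ± 0.080 and -0.17 ± 0.099 and did not pass. IFI44L fell by 0.38 ± 0.090 on the log2 scale (-0.88 with neqc, limma adjusted p = 0.00920), to a level that 0 of 3 siSUZ12 + siBRM arrays with IFNγ detected. Without replicate 1 of siSUZ12 with IFNγ, or without replicate 2 of siSUZ12 + siBRM with IFNγ, the call was lost (adjusted p up to 0.234 over all fits that left out arrays). IFI44 was close to 0 in both backgrounds with IFNγ, at 0.03 (95% interval -0.14 to 0.20) in siCtrl and -0.08 (95% interval -0.25 to 0.09) in siSUZ12 cells.

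Whether siBRM altered the IFNγ induction was tested as a difference of inductions. In siCtrl cells 0 of the 7 passed in limma, as did 0% of all probes. At an unadjusted p below 0.05 stood 1895 of the 47231 probes and 3 of the 7, ILMN_2347798 at 0.51 ± 0.11, IFITM2 at 0.25 ± 0.11 and IFITM3 at 0.33 ± 0.14. The first had an adjusted p of 0.432, and it passed when only probes detected on at least 3 arrays were tested and when eBayes was run with its trend and robust settings (adjusted p down to 0.0137). In siSUZ12 cells 0 of the 7 passed (0.0275% of all probes changed). At an unadjusted p below 0.05 were 2120 of the 47231 probes and 2 of the 7. These were ILMN_2347798 at 0.28 ± 0.11 and IFI44L at -0.46 ± 0.13 (adjusted p = 0.726). With neqc the IFI44L value was -1.01 and passed (adjusted p = 0.00128), a call that no other setting gave. Among the groups in this difference only siSUZ12 with IFNγ detected IFI44L.

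**Figure D5:**
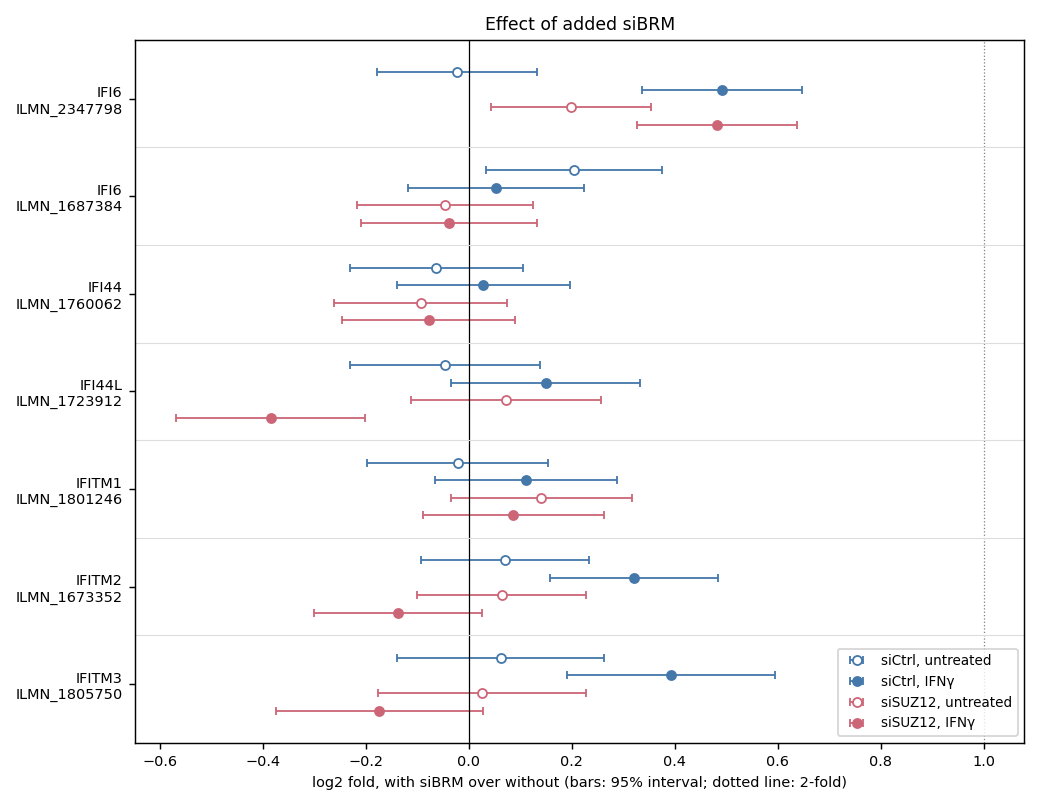
Log2 fold change of added siBRM for each probe in siCtrl (blue) and siSUZ12 cells (red), untreated (open) and with IFNγ (filled), with 95% intervals from the limma fit. ILMN_2347798 (IFI6) lies at 0.49 and 0.48 with IFNγ, and IFI44L lies at -0.38 in siSUZ12 cells with IFNγ.

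Across the 8 groups, ILMN_2347798 (IFI6) had the most separated levels of the 7 probes. From the lowest mean upwards its order was siCtrl + siBRM and siCtrl untreated, siSUZ12 untreated, siSUZ12 + siBRM untreated, siCtrl with IFNγ, siCtrl + siBRM with IFNγ, siSUZ12 with IFNγ and siSUZ12 + siBRM with IFNγ, and only the lowest pair overlapped. For ILMN_1687384 only the 2 lowest groups, siCtrl and siCtrl + siBRM untreated, stood apart from their neighbours. By the ranges of its arrays IFI44 fell into 4 steps. Untreated siCtrl groups were lowest, siCtrl groups with IFNγ next, untreated siSUZ12 groups above those and siSUZ12 groups with IFNγ highest. The groups with and without siBRM overlapped within each step. The lower 2 steps were not told apart by limma on this scale (adjusted p = 0.794, and 0.226 with siBRM). In them only siCtrl + siBRM with IFNγ detected the probe, on 1 of 3 arrays. IFI44L and IFITM1 separated only at the top, IFI44L with siSUZ12 with IFNγ above siSUZ12 + siBRM with IFNγ and both above the rest, and IFITM1 with these 2 groups overlapping. IFITM2 and IFITM3 shared 1 order above the untreated groups, with siCtrl with IFNγ lowest, the 2 siBRM groups with IFNγ overlapping and siSUZ12 with IFNγ highest.

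The likeness of these patterns was measured by Pearson's r of log2 signals over the 24 arrays, which share group structure, and is given as a description. IFITM2 and IFITM3 had r = 0.9856, and among the 18228 probes compared IFITM2 was the closest to IFITM3 and IFITM3 the second closest to IFITM2. IFI44 and IFI44L had r = 0.9052, with IFI44 at number 5 in closeness to IFI44L and IFI44L at number 46 in closeness to IFI44. Every member entered this comparison whatever its detection, while other probes had to be detected on at least 3 arrays. IFI44L was detected only on the 3 siSUZ12 arrays with IFNγ, so its r with IFI44 rests mainly on that group. IFITM1, also detected on 3 arrays only, was about as close to IFI44 (r = 0.8958). It stood at number 48 in closeness to IFI44, and IFI44 at number 11 in closeness to IFITM1. The IFI6 probes had r = 0.8955, with ILMN_1687384 at number 145 in closeness to ILMN_2347798 and the reverse at number 28. Near that value were the r of ILMN_2347798 with IFI44 (0.8743), IFITM1 (0.8829), IFITM2 (0.8823) and IFITM3 (0.8821), while its r with IFI44L was 0.7775. The 2 closest to ILMN_2347798 were ILMN_2054019 (r = 0.9855) and ILMN_1751330 (r = 0.9812), for which the table gives no gene.

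A wider frame is given by the 156 probes that IFNγ raised ≥ 2-fold in at least 1 of the 4 siRNA backgrounds, of which 4 are members (ILMN_2347798, IFI44, IFITM2 and IFITM3). Their median log2 induction was 0.79 in siCtrl and 1.42 in siSUZ12 cells, and their median effect of siSUZ12 was 0.10 untreated and 0.62 with IFNγ. The list was itself drawn from these inductions, and IFI44 is in it only through its rise in the siSUZ12 backgrounds, so no member is ranked against these medians.

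Background correction moved the dim probes in both directions. With neqc the induction in siCtrl cells was 1.47 for IFITM2 and 1.31 for IFITM3 (log2), both over 2-fold, and in siSUZ12 cells it was 2.04 and 2.22. For IFI44L, in contrast, the effect of siSUZ12 became 0.11 in untreated cells and 0.26 in untreated siBRM cells, where the call was lost, and the induction in siCtrl + siBRM cells became 0.14, each smaller than without the correction. The fall of IFI44L with siBRM in siSUZ12 cells with IFNγ became -0.88. The bright IFI6 probes moved little, ILMN_2347798 to 1.77 and ILMN_1687384 to 0.42 for the induction in siSUZ12 cells.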

How the data were processed

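The authors prepared cRNA from SW-13 cells, hybridized it to Human-HT-12 BeadChips and deposited the unnormalized signal intensity of every probe in 1 table, where each intensity stands beside the detection p-value that the authors' software computed. The Methods name average normalization by BeadStudio, and the version is not given in the sources used here. Samples were grouped from their labels and table columns were matched by sample title. Signals were scaled so that every array had a mean of 579.7, the average over arrays. They were then put on the log2 scale above a floor of 16, which 0 values reached. The model, from limma 3.58.1 (R 4.3.3), was fitted once to the 24 arrays with a mean per group (16 residual degrees of freedom, median residual SD 0.114), and p-values were adjusted by Benjamini-Hochberg over 47231 probes. Permutation of 3 arrays against 3 cannot go below 0.10, and the limma tests therefore use a spread estimated over groups and probes.

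On simulated data with 200 of 47231 probes changed in the IFNγ comparison of siCtrl cells, 100% of 2-fold and 93.5% of 1.5-fold changes were recovered, with 8 and 11 false calls. The changes were added to the log2 signal of probes drawn from the whole array, detected or not. These shares are therefore for changes in signal, and do not show how well an mRNA change on a dim probe such as IFI44L or IFITM1 would be recovered. The members and their lists were chosen with earlier results of these data known. The rule was to name all members in every comparison, and by r the 2 other probes closest to ILMN_2347798. Other genes of the pathway could not be counted, because the table pairs no probe with a gene name. Promoter letters were read from RefSeq windows (GRCh38.p14) with Python 3.11.15, and figures were drawn with matplotlib 3.10.9. Alternatives were quantile normalization, neqc (offset 16), no normalization, a floor of 64, a detection filter, the groups concerned alone, a replicate block, a trended and robust eBayes step, a 2-fold threshold, and each replicate number or array left out.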

Additional observations from a re-analysis of the deposited data

Results flagged for a closer look

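The tests of a difference between siRNA backgrounds in the same IFNγ contrast that passed are repeated here, since in each of them 2 groups responded unequally. Without siBRM, the induction in siSUZ12 cells exceeded that in siCtrl cells by 0.76 for IFI6 (ILMN_2347798), 1.95 for IFI44 and 0.75 for IFI44L on the log2 scale, by limma with Benjamini-Hochberg adjustment (adjusted p = 7.83e-05, 6.94e-14 and 0.00135). With siBRM in both, the excess was 0.53 for IFI6 (ILMN_2347798) and 1.87 for IFI44 (adjusted p = 0.0269 and 2.64e-13). The second IFI6 probe, ILMN_1687384, gave -0.27 and -0.11 for the same differences and did not pass. The ILMN_2347798 call with siBRM was lost under 14 of 35 alternative settings, among them neqc and each replicate number left out of all groups. The IFI44L call was lost when replicate 2 or replicate 3 was left out of all groups. No siCtrl array without siBRM detected IFI44, so the sizes of these IFI44 differences depend on the background correction. IFI44L was detected on the 3 siSUZ12 arrays with IFNγ and on no other array. Groups held 3 arrays, too few for a test of single arrays that stand apart.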

How the results depend on the processing

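Across 35 alternative settings and 119 member results, 4080 of 4158 values stayed on the same side of the threshold with the direction kept where called, 55 lost the call, 23 gained one and 0 called values changed sign, while 75 values that were called neither way changed sign. Many settings left out a single array, often one outside the groups compared, where the fold could not move. The tally, and counts of settings given above, are therefore no measure of how firm a call is. With a 2-fold threshold the members called by IFNγ were 0 in siCtrl and 4 in siSUZ12 cells, those called by siSUZ12 were 0 untreated and 2 with IFNγ, with siBRM again 0 and 2, those called by siBRM with IFNγ were 0 in siCtrl and 0 in siSUZ12 cells, and the differences in induction between siSUZ12 and siCtrl were 1 without and 1 with siBRM. These 2-fold counts are on signals without background correction. Without normalization 2 members were called for siSUZ12 in untreated siBRM cells. For the difference in induction with siBRM, 1 member (IFI44) was called without normalization, with neqc and with the 4 groups alone. neqc called 1 member (IFI44L) for the difference in induction of siSUZ12 + siBRM against siSUZ12 (-1.01) and 1 (IFI44L) for the difference between the siSUZ12 effects with and without siBRM (-1.15). The detection filter and the trend and robust settings each called 1 (ILMN_2347798, IFI6) for siCtrl + siBRM against siCtrl. With replicates left out, the members called ranged from 2 to 4 for siSUZ12 in untreated siBRM cells, from 1 to 3 for siBRM in siCtrl cells with IFNγ, from 1 to 2 for siBRM in siSUZ12 cells with IFNγ and from 1 to 2 for the difference in induction with siBRM. Only the larger shifts in the counts are listed here. Among the others, ILMN_1687384 lost its call for IFNγ in siSUZ12 cells, and IFI44L for the difference in induction without siBRM, each without replicate 2 or replicate 3. IFITM3 gained a call for that difference without replicate 1. The difference that involves all 8 groups has no fit of its groups alone. After quantile normalization the same 2 probes were closest to ILMN_2347798 (r = 0.9833 and 0.9816). The median log2 change over all probes moved by at most 0.07 between scalings.

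The labels number the arrays of each group alike. With that number as a replicate block, all counts of members called were those without it (7 for IFNγ in siSUZ12 cells, 3 for the difference in induction without siBRM), and no member's call changed. Deviations of same-numbered arrays correlated at a median of 0.102 over 84 pairs (lowest -0.0982, 43 above 0.1), those of differently numbered arrays at -0.0462, and 16 of 24 arrays were closest to their own number. These values lean toward a shared replicate set, but not every pair was above 0.1 and the labels name no shared source, so the arrays were not treated as paired. Dim probes limit what can be read: IFI44L was detected on 3 arrays and IFITM1 on 3, and a change below the background light was not detectable.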
